A study of Mus musculus with 45 samples.

Results

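The genes of the interleukins, their receptors, decoys and antagonists were followed through 4 tissues. They were chosen by name alone: a gene symbol of the count table was a member when it consisted of Il, a number, and at most some lower-case letters and another number. Of 55367 gene symbols, 83 matched. The rule takes in Il4i1, an amino acid oxidase named for its induction by IL-4, and Il1bos, a transcript antisense to Il1b, and it leaves out partners with other names, such as Ebi3 and Tslp.

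RNA was sequenced from scaffolds, lungs, spleens and primary tumors of female Balb/c mice, with 3 libraries in each of 15 groups and 45 libraries in all. Every mouse, the tumor-free Control mice included, carried a porous polycaprolactone scaffold under the skin, a synthetic implant that is colonised by host cells, placed at 7 to 8 weeks of age. After 2 weeks, tumor-bearing mice received 2000000 67NR, 4T07 or 4T1 cells in a mammary fat pad, and all tissues were taken 14 days later. The 3 lines are sister lines derived from the same mouse mammary carcinoma and differ in how far they spread: 67NR is described as staying at the primary site, 4T07 as disseminating without growing out, and 4T1 as forming metastases, so each disease state is represented by 1 cell line.

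Interleukins are secreted proteins through which leukocytes, epithelium and stroma signal to each other. They fall into families that share receptor chains: the IL-1 family works through paired immunoglobulin-type receptors and is held in check by a receptor antagonist and a decoy receptor, the common gamma chain serves the lymphocyte growth cytokines, and gp130 serves IL-6 and IL-11. IL-1 beta is made mainly by activated myeloid cells, among them the neutrophils that tumors can draw from the marrow into blood, spleen and lung.

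Library totals ran from 3491888 to 8175380 counts, and a level is given as CPM, the count in 1000000 counts of its library. A level of 3 counts, taken as the smallest a library can show, was 0.367 to 0.859 CPM. The labelled tissues were checked with markers: 4 lung epithelial markers summed to 26282 to 29839.7 CPM in Control lungs against 3.92 to 8.62 CPM in Control spleens, 5 B cell markers to 801 to 949 CPM in Control spleens, and 4 fibroblast markers to 5905 to 8505 CPM in Control scaffolds. Control scaffold library 2 stood apart from libraries 1 and 3 in several IL-1 family members, and 4T07 lungs held less lung epithelial signal than the others, at 5064 to 13053 CPM. In whole tissue, fewer cells of a type and less RNA per cell cannot be told apart. The part of that lower lung epithelial signal in the 4T07 lung values of the members was not tested.

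Of the 83 members, 55 reached a mean of 1 CPM in at least 1 group and 33 did so in every group. The other 28 stayed under 1 CPM in every group, among them the type 2 cytokines Il5 and Il13, and Il17a, Il9 and Il11ra2 had no count in any library. Il11ra2 is a near copy of Il11ra1, so reads of the pair may have been assigned to 1 of them by the counting, and the strand setting of the counting is not given in the sources used here, which leaves Il1bos and Il1b uncertain in the same way. The other members under 1 CPM are described by counts only, unless they passed a test.

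**Figure D1:**
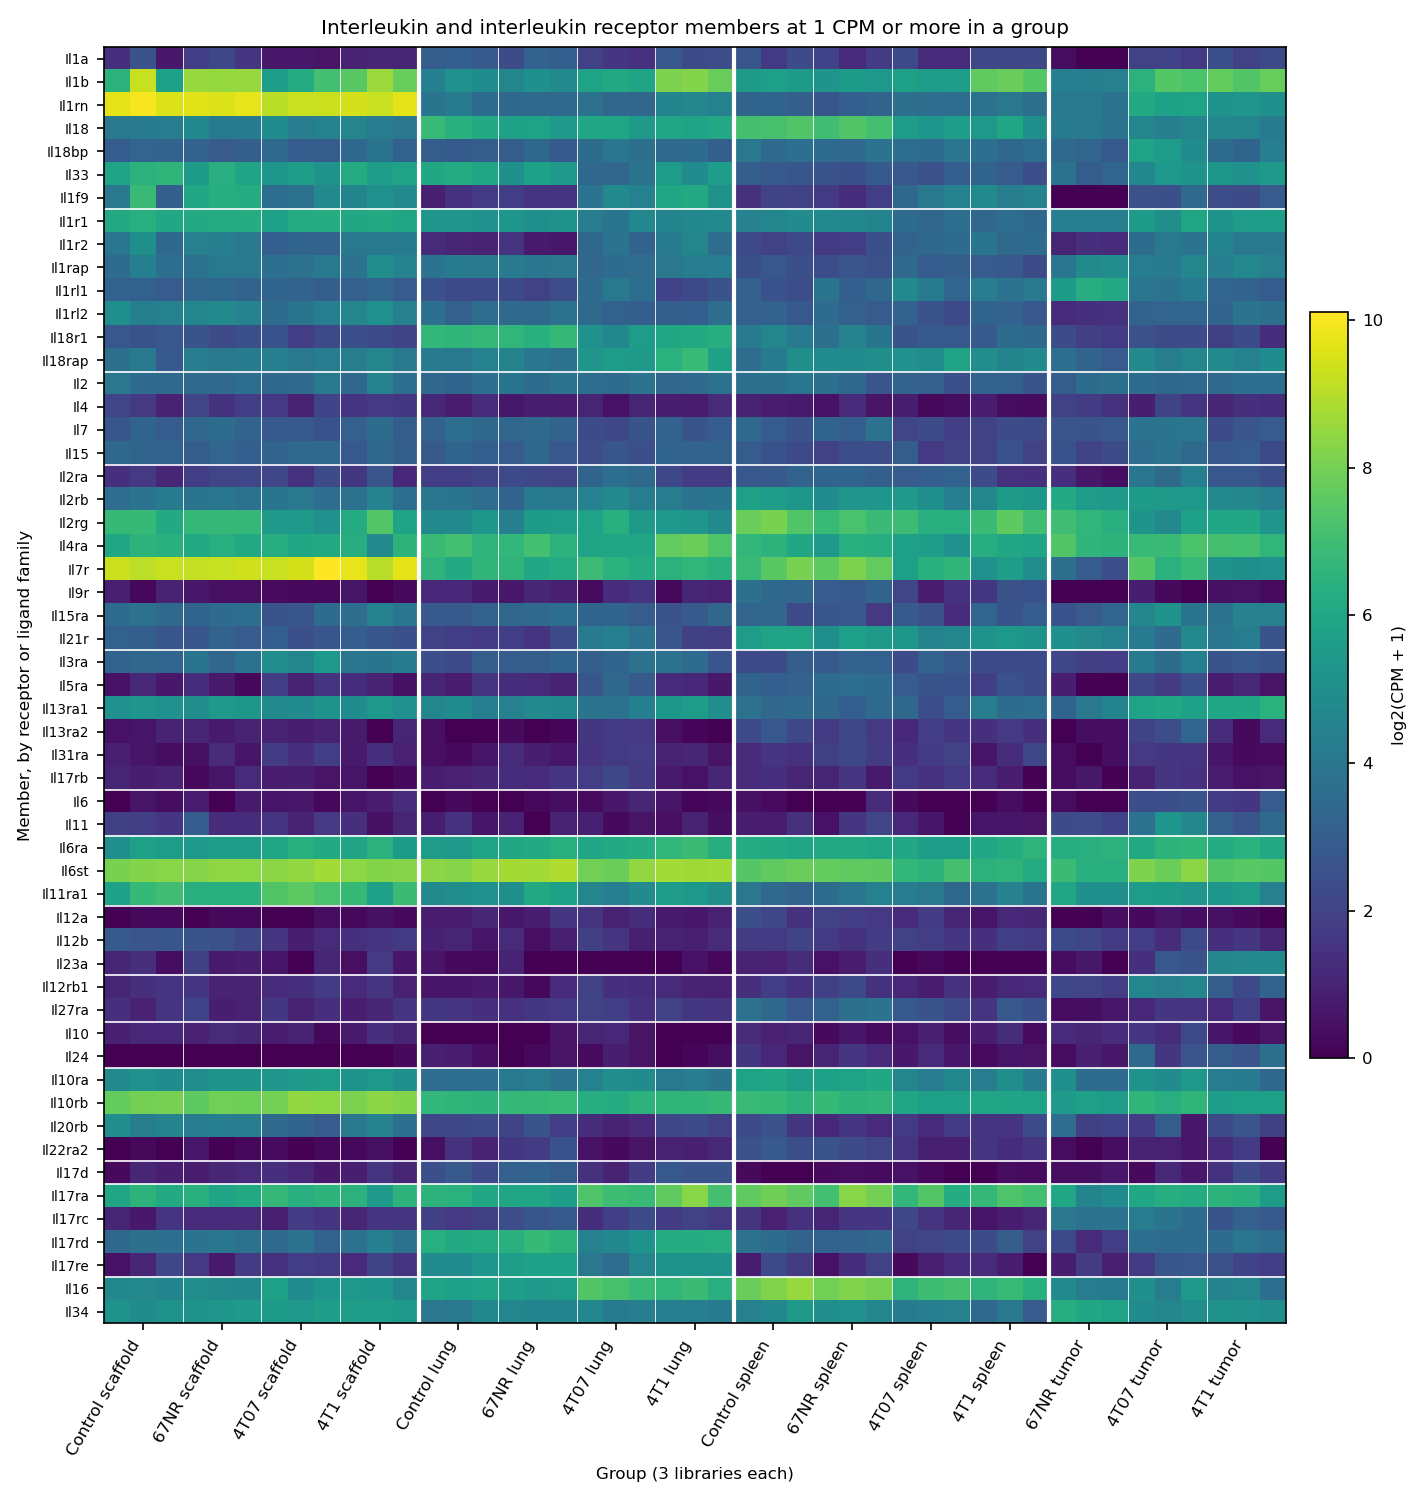
Level of the 55 members that reached 1 CPM in a group, as log2(CPM + 1), in each of the 45 libraries; columns are libraries in groups of 3, thick white lines part the tissues and thin horizontal lines the families. Il1rn and Il7r are bright across the 12 scaffolds, Il16 in Control and 67NR spleens, and Il18r1 and Il17rd in Control lungs.

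The comparisons ask how the interleukin system of each tissue differs with the line that the mouse carries. Differences were called past a fold change of 2 with an adjusted p below 0.05 (tumors) or 0.10 (other tissues) (edgeR's quasi-likelihood test, Benjamini-Hochberg over all genes). Levels with ± are means ± SD (n = 3 libraries), and a log2 fold change, also where it stands alone in parentheses, is the group with the named tumor line minus the group it is set against, ± SE. Where the lower group of a comparison held 1 to 3 counts in all, the ratio of the groups is given with an exact 95% binomial interval that covers counting error only. Libraries carry the numbers 1 to 45 of the labels, so that Control scaffolds are libraries 1 to 3. Comparisons with a Control or 67NR group in the same tissue share those libraries. The 3 libraries of a group come from separate mice by the study's account, but the labels do not link the tissues of a mouse.

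Between primary tumors, 28 members were higher and 3 lower in 4T07 than in 67NR tumors, where 17.1% and 11.8% of all genes tested were, in the same order; the median log2 fold change was 1.42 over the 57 members tested and 0.16 over all genes. In 4T1 tumors 18 were higher and 6 lower than in 67NR tumors, against 11.6% and 9.07% of all genes. Against 4T07 tumors, 2 were higher and 14 lower in 4T1, against 3.82% and 4.79%, and that count of 16 was 10 without 4T07 library 31 or 4T1 library 44.

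In lungs, 17 members were higher and 7 lower with 4T07 tumors than in Control mice, against 15.3% and 13.7% of all genes. With 4T1 tumors 5 members were higher and none lower, against 3.56% and 1.05%, and with 67NR tumors 1 was higher and none lower, against 2.52% and 1.73%. That 1 was Il22ra2, which encodes the soluble IL-22 binding protein, at 0.349, 1.80 and 0.971 CPM in Control and 2.11, 2.44 and 4.77 CPM in 67NR lungs (log2 fold change 1.49 ± 0.46, adjusted p = 0.0524). In 4T1 lungs 10 were higher and 8 lower than in 4T07 lungs, against 11.6% and 11.9%. The count for 67NR lungs was 0 without Control library 4 or 67NR library 15 and 2 without 67NR library 13 or 14. The member gained was Il17rc without library 13 (1.08 ± 0.34, adjusted p = 0.0584) and Il18 without library 14 (-1.01 ± 0.22, adjusted p = 0.0155). Il18 also passed as lower without Control library 6 (-1.10 ± 0.19, adjusted p = 0.000964). It stood at 116, 84.8 and 70.7 CPM in Control and 54.2, 55.2 and 43.7 CPM in 67NR lungs. The Il22ra2 call between 67NR and Control lungs was lost without Control libraries 4 or 6 or 67NR library 15 or with DESeq2 (log2 fold change 1.03 to 1.47, adjusted p 0.104 to 0.321).

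In spleens more members were lower than higher: 4 were higher and 11 lower with 4T07 tumors, against 8.26% and 10.3% of all genes, and 4 were higher and 12 lower with 4T1 tumors, against 9.84% and 10.0%. The median log2 fold change of the 57 members tested was -0.60 and -0.57, against -0.09 and -0.10 over all genes. In 4T1 spleens 2 were higher and 1 lower than in 4T07 spleens, against 0.838% and 1.50%, a count of 3 that was 5 without 4T07 library 28 and 1 without 4T07 library 29 or 30 or 4T1 library 42. With 67NR tumors none passed, against 2.26%, in edgeR and in DESeq2, and 4 members had an unadjusted p under 0.05. The share of all genes under that p is not given, so the count of 4 cannot be read as a shift of the members. Without Control library 9, 2 members passed there (Il2rg, -1.13 ± 0.21, adjusted p = 0.00681, and Il20rb, -1.56 ± 0.45, adjusted p = 0.0476), and without 67NR library 17, Il2rg did (-1.03 ± 0.25, adjusted p = 0.0502).

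In scaffolds, with 4T07 tumors, 2 members were higher and 7 lower than in Control scaffolds, against 3.85% and 3.59% of all genes, and with 4T1 tumors 2 were higher and 1 lower than with 4T07 tumors, against 0.636% and 0.366%. That count of 3 was 1 without 4T07 library 23 or 24 and 0 without 4T1 library 35. None passed with 4T1 tumors, against 0.0226% of all genes, or with 67NR tumors, against 0%, in edgeR and in DESeq2. An unadjusted p under 0.05 was held by 11 and 1 members, with adjusted p of at least 0.157 (Il12b) and 0.998. The share of all genes under that p is not given, so these counts cannot be read as a shift of the members. Without Control library 2, Il1f9 passed with 67NR tumors (log2 fold change 2.58 ± 0.38, adjusted p = 0.0651).

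The tissues of Control mice set the starting levels. Between scaffold and lung 22 members were higher and 9 lower in scaffold (all genes, 14.7% and 17.9%), between scaffold and spleen 18 and 18 (16.9% and 17.5%), and between lung and spleen 8 higher and 21 lower in lung (20.2% and 19.7%). Scaffolds were highest in Il7r, the IL-7 receptor chain, at 599 ± 38.0 CPM (log2 fold change 2.99 ± 0.25, adjusted p = 1.46e-07 against lung), in Il10rb, a chain of several IL-10 family receptors, at 241 ± 27.3 CPM (1.52 ± 0.16, adjusted p = 1.18e-06), and in the IL-1 family genes described next. Lungs were highest in Il18r1, the IL-18 receptor chain, at 102 ± 4.29 CPM (2.40 ± 0.18, adjusted p = 2.5e-08 against spleen), in Il17rd at 74.4 ± 4.74 CPM (2.75 ± 0.19, adjusted p = 1.42e-08) and in Il17re at 31.6 ± 5.68 CPM (3.78 ± 0.44, adjusted p = 4.33e-06). Spleens were highest in Il16 at 299.5 ± 75.0 CPM (-3.42 ± 0.19, adjusted p = 1.99e-09, scaffold minus spleen), in the common gamma chain Il2rg at 220.1 ± 51.6 CPM (-2.85 ± 0.24, adjusted p = 1.46e-07, lung minus spleen), and in Il21r at 52.3 ± 5.12 CPM (-4.33 ± 0.23, adjusted p = 8.27e-10). For several of these genes the tissue compared was not the second highest. That was spleen for Il7r (190.1 CPM) and Il10rb (104.9 CPM) and lung for Il16 (54.8 CPM). It was scaffold for Il17rd (11.25 CPM), Il2rg (95.6 CPM) and Il21r (6.85 CPM). Il27ra and Il2rb, chains of the IL-27 and IL-2 receptors, were lower in scaffold and lung than in spleen (scaffold: -2.50 and -1.54; lung: -2.37 and -1.84). Il1rapl1 passed between scaffold and spleen with both groups under the floor of 3 counts per library, so no fold is given.

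The IL-1 family has 11 ligands and antagonists among the members, of which 7 were tested in each tissue. In tumors 6 were higher in 4T07 and 5 in 4T1 than in 67NR (all genes, 17.1% and 11.6%) and none was lower, in 4T07 lungs 2 were higher and 2 lower than in Control (all genes, 15.3% and 13.7%), and in 4T1 lungs 2 were higher (3.56%). Il1b, the secreted IL-1 agonist that is cleaved by inflammasome caspase-1, parted 4T1 from 4T07 in lung and spleen. In lungs it stood at 19.4, 33.4 and 28.8 CPM in Control lungs, 24.1, 33.1 and 27.6 CPM in 67NR lungs, 55.0, 69.4 and 58.6 CPM in 4T07 lungs and 275, 303 and 214 CPM in 4T1 lungs. The 4T1 libraries lay above all others, and the 4T07 libraries lay between them and the Control and 67NR libraries. Il1b rose 9.83-fold in 4T1 lungs (log2 fold change 3.30 ± 0.19, adjusted p = 4.19e-10) and by less in 4T07 lungs (1.24 ± 0.19, adjusted p = 1.85e-05), and the difference between 4T1 and 4T07 passed (2.06 ± 0.18, adjusted p = 2e-08).

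In spleens Il1b stood at 44.1, 51.2 and 44.6 CPM in Control spleens, 36.2, 43.9 and 41.0 CPM in 67NR spleens, 52.5, 46.2 and 47.8 CPM in 4T07 spleens and 198, 219 and 172 CPM in 4T1 spleens. Its level rose in 4T1 spleens (2.33 ± 0.16, adjusted p = 7.9e-08), while the 4T07 value against Control was 0.24 ± 0.15, adjusted p = 0.281; 4T1 was above 4T07 (2.09 ± 0.16, adjusted p = 1.74e-06). The 8 neutrophil markers summed to 220.3 to 289.6 CPM in Control, 23132 to 27697 CPM in 4T07 and 11599 to 27327 CPM in 4T1 lungs, and to 977 to 1716, 24232 to 29765 and 12429.7 to 32329.7 CPM in the spleens. All 8 were higher in 4T07 and in 4T1 than in Control, in both organs, and the summed ranges of 4T07 and 4T1 overlapped; between 4T1 and 4T07, 3 markers were higher and 2 lower in lungs and 2 higher in spleens. The part of neutrophil number in the Il1b values, against Control and between 4T1 and 4T07, was not tested.

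**Figure D2:**
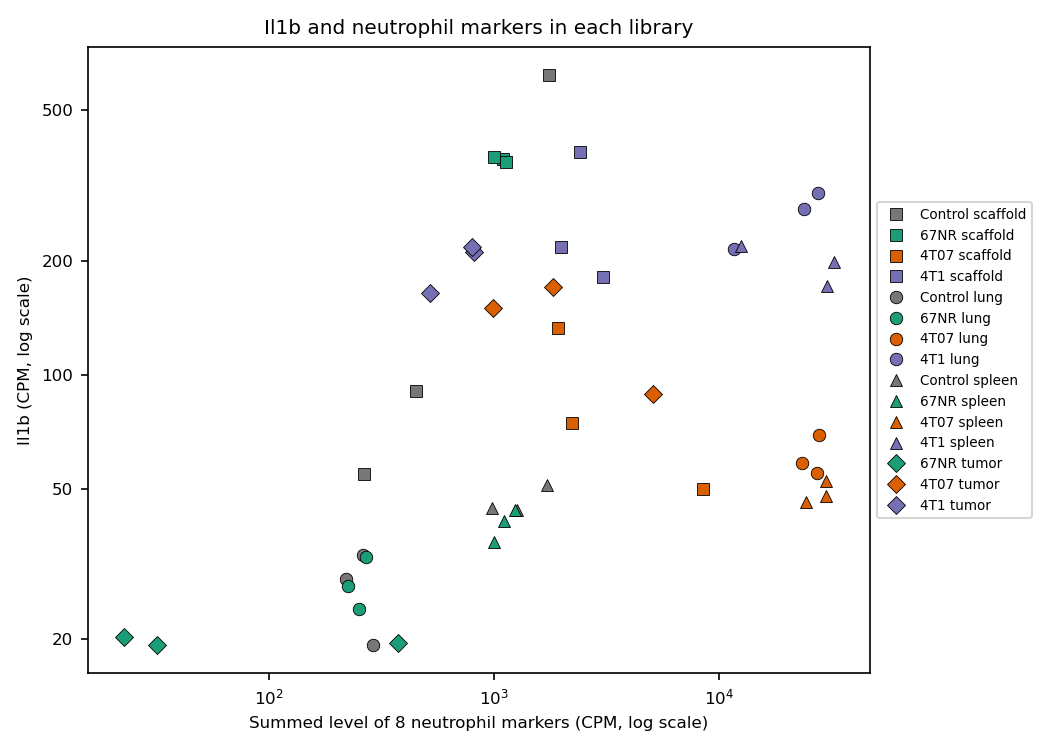
Il1b (CPM) against the summed level of 8 neutrophil markers (CPM) in each of the 45 libraries, both on log scales; color marks the tumor line and shape the tissue. 4T1 lungs and spleens sit between 172 and 303 CPM of Il1b and 4T07 lungs and spleens between 46.2 and 69.4 CPM, over overlapping neutrophil sums.

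In primary tumors Il1b stood at 19.4, 19.6 and 20.3 CPM in 67NR tumors, 89.1, 171 and 149.9 CPM in 4T07 tumors and 211, 164 and 218 CPM in 4T1 tumors. Both 4T07 (2.54 ± 0.24, adjusted p = 1.1e-06) and 4T1 tumors (3.12 ± 0.24, adjusted p = 1.47e-07) lay above 67NR tumors without overlap, and 4T1 against 4T07 was 0.58 ± 0.21, adjusted p = 0.0796. The neutrophil sum was 22.6 to 373, 990.0 to 5090.3 and 518 to 810.3 CPM in 67NR, 4T07 and 4T1 tumors, with 7 of 8 markers higher in 4T07 and 3 of 8 higher in 4T1 than in 67NR tumors; its part in the Il1b values was not tested.

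In scaffolds Il1b stood at 90.4, 618 and 54.6 CPM in Control scaffolds, 372, 366 and 377 CPM in 67NR scaffolds, 49.9, 74.5 and 133 CPM in 4T07 scaffolds and 182, 388 and 218 CPM in 4T1 scaffolds. Control library 2 was the highest of the 12, while Control libraries 1 and 3 were among the 5 lowest, and the neutrophil sum of Control libraries 1, 2 and 3 was 448, 1751 and 263 CPM. The call of lower Il1b in 4T07 than in Control scaffolds (-1.69 ± 0.62, adjusted p = 0.0888) rested on that library: without it the log2 fold change was 0.072. The Il1b call between 4T07 and Control scaffolds was lost without Control library 2 or 4T07 libraries 22 or 23, with DESeq2 or with only the compared groups in the fit (log2 fold change 0.07 to -1.71, adjusted p 0.123 to 0.938).

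Il1f9 is the older symbol of the epithelial and myeloid agonist IL-36 gamma, and Il1r2 is the decoy receptor that binds IL-1 without signaling. Both rose beside Il1b in 4T07 and 4T1 lungs and in 4T1 spleens. In 4T07 spleens both rose while Il1b did not pass (0.24 ± 0.15, adjusted p = 0.281). The neutrophil markers described above were also higher than in Control in these lungs and spleens. Their part in the Il1f9 and Il1r2 values was not tested. In lungs Il1f9 stood at 0.872, 1.80 and 2.27 CPM in Control lungs, 2.68, 1.95 and 1.88 CPM in 67NR lungs, 13.6, 27.1 and 20.6 CPM in 4T07 lungs and 59.7, 69.9 and 35.7 CPM in 4T1 lungs. Il1r2 stood at 1.40, 1.08 and 0.971 CPM in Control lungs, 1.92, 0.650 and 0.579 CPM in 67NR lungs, 9.53, 13.4 and 8.24 CPM in 4T07 lungs and 16.4, 24.1 and 11.1 CPM in 4T1 lungs. For both genes all 4T07 and 4T1 lungs lay above all Control and 67NR lungs. Il1f9 rose in 4T07 (3.67 ± 0.35, adjusted p = 4.1e-08) and 4T1 lungs (5.05 ± 0.33, adjusted p = 1.92e-09) and was higher in 4T1 than in 4T07 (1.38 ± 0.24, adjusted p = 0.000120). Il1r2 rose in 4T07 (3.22 ± 0.40, adjusted p = 1.28e-06) and 4T1 lungs (3.90 ± 0.38, adjusted p = 5.06e-07), with 4T1 against 4T07 at 0.68 ± 0.28, adjusted p = 0.0664.

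In spleens Il1f9 stood at 1.75, 3.23 and 3.02 CPM in Control spleens, 2.30, 1.53 and 2.69 CPM in 67NR spleens, 9.68, 15.5 and 20.6 CPM in 4T07 spleens and 27.1, 17.9 and 22.2 CPM in 4T1 spleens, and Il1r2 at 3.69, 3.00 and 3.67 CPM in Control spleens, 2.30, 2.56 and 4.49 CPM in 67NR spleens, 8.24, 9.49 and 10.6 CPM in 4T07 spleens and 14.1, 10.3 and 10.7 CPM in 4T1 spleens. Again no 4T07 or 4T1 library reached down to a Control or 67NR library. The log2 fold changes were 2.69 ± 0.34, adjusted p = 2.89e-05 (4T07) and 3.33 ± 0.33, adjusted p = 2.71e-06 (4T1) for Il1f9, and 1.61 ± 0.28, adjusted p = 0.000545 (4T07) and 2.01 ± 0.28, adjusted p = 6.14e-05 (4T1) for Il1r2. Il1f9 had no count in any 67NR tumor and stood at 4.62, 4.54 and 10.2 CPM in 4T07 and 4.21, 3.90 and 6.47 CPM in 4T1 tumors, at least 7.75-fold and 5.85-fold above a floor of 3 counts per library (adjusted p = 6.63e-05 and 0.000154). Tumors of 67NR, 4T07 and 4T1 held 1.39 ± 0.302, 13.3 ± 2.47 and 17.7 ± 3.96 CPM of Il1r2 (SD, n = 3; log2 fold changes 2.99 and 3.46). Scaffolds ran against this: Il1r2 was lower in 4T07 than in Control scaffolds (-1.39 ± 0.33, adjusted p = 0.0124), at 7.22, 8.45 and 8.08 against 14.7, 32.0 and 9.29 CPM. The Il1r2 call between 4T07 and Control scaffolds was lost without Control library 2 (log2 fold change -0.76).

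**Figure D3:**
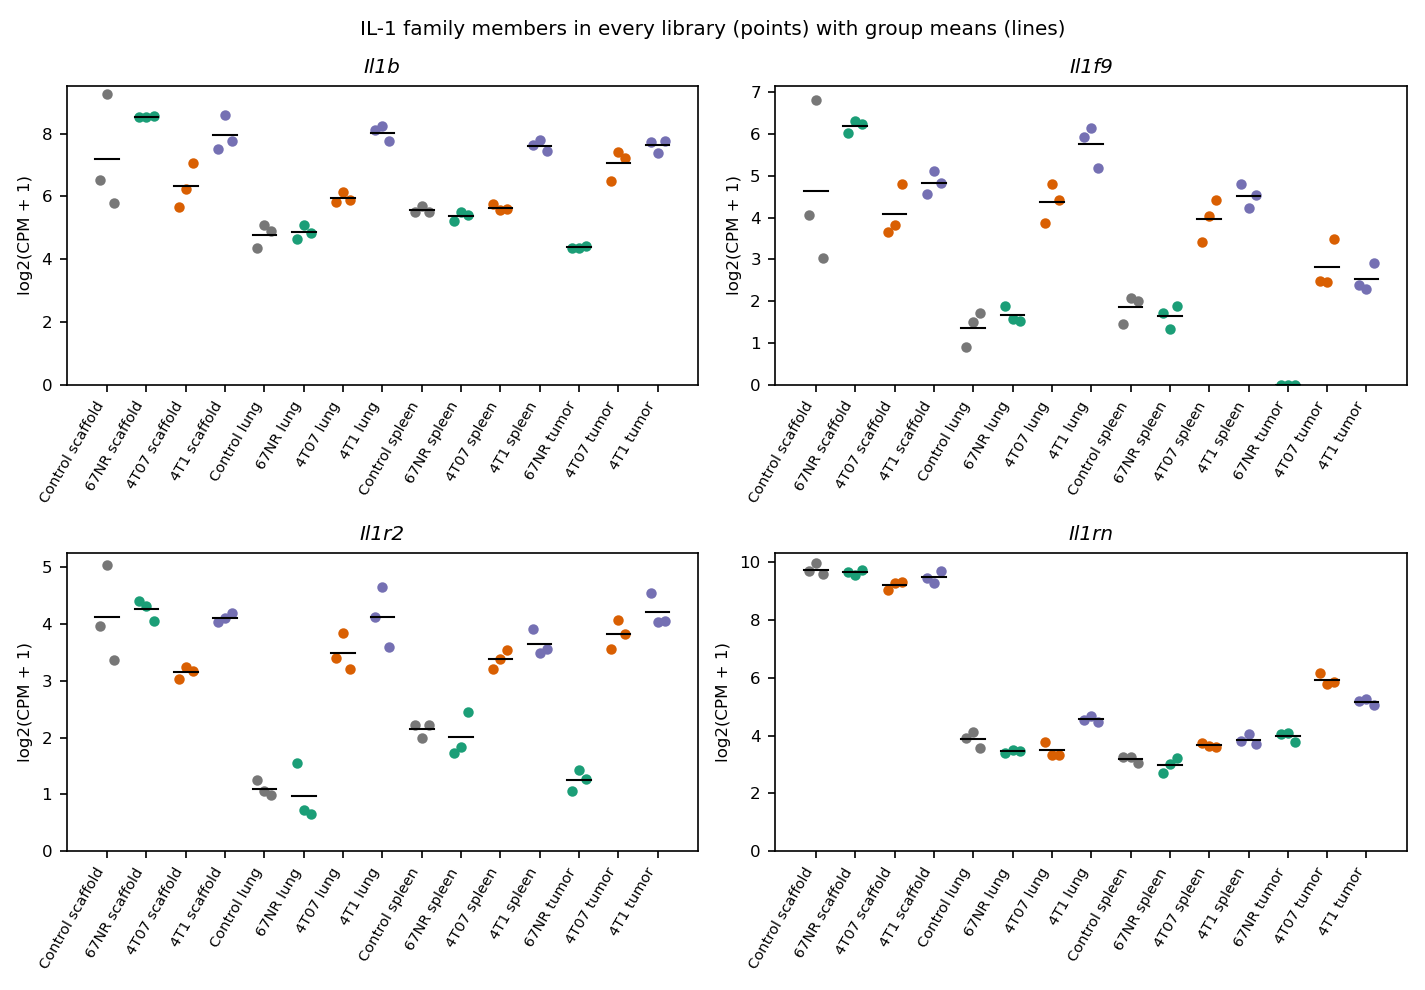
Levels of Il1b, Il1f9, Il1r2 and Il1rn as log2(CPM + 1) in each library (points, 3 per group) with the mean of the log values (line), in the 15 groups; color marks the tumor line. Il1b, Il1f9 and Il1r2 are highest among lungs in the 4T1 group, and Il1rn lies between 531 and 1007 CPM in scaffolds and at most 24.6 CPM in lungs and spleens.

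The promoters of the 3 genes that rose together in 4T1 lungs and spleens are shown with that of Il1r1, the signaling receptor that lies next to Il1r2 and fell in both spleens. These are the 250 bases before the RefSeq start on GRCm38.p6, read 5′ to 3′ on the gene's strand, with matches to TTGCNNAA (C/EBP), TGANTCA (AP-1) and TTCNNNGAA (STAT), searched on both strands, in capitals. Of the 2 windows listed for Il1r1 the more upstream is shown. Of the 83 members, 66 had an entry in the RefSeq promoter table.
Il1b (chr2:129371140-129371389, - strand): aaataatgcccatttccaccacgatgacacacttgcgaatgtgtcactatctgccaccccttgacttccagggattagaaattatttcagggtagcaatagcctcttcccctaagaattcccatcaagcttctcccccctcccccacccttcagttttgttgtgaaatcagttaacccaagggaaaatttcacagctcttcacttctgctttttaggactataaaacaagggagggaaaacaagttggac
Il1f9 (chr2:24186226-24186475, + strand): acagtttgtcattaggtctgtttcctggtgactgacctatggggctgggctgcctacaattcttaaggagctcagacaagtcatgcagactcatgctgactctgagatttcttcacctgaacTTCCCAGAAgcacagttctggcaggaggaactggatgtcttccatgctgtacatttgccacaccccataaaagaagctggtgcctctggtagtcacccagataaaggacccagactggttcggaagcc
Il1r2 (chr1:40085843-40086092, + strand): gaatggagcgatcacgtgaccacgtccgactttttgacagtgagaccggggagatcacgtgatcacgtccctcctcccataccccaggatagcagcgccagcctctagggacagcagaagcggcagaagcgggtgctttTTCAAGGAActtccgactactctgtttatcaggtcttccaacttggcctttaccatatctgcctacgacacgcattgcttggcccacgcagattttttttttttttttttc
Il1r1 (chr1:40224830-40225079, + strand): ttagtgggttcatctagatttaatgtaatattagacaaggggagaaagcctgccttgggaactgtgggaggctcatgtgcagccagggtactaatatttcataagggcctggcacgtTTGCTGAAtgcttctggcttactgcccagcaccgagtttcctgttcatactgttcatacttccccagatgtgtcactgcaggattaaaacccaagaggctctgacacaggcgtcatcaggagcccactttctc

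Il1f9 held the STAT letters TTCCCAGAA at 128 to 120 bases before the start and Il1r2 held TTCAAGGAA at 111 to 103 bases before it, letters present in 7.02% of all 32851 promoter windows. Il1b held no match to any of the 3 motifs, no window of the 4 held the AP-1 letters (in 6.75% of windows), and Il1r1 held TTGCTGAA (C/EBP, in 9.56% of windows) at 133 to 126 bases before the start. A match is a description of the letters only, and the sequenced 3′ tags do not show which start site was used.

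Il1rn, the receptor antagonist that blocks IL-1, was among the most abundant members in scaffolds. It stood at 822, 1007 and 766 CPM in Control scaffolds, 804, 756 and 849 CPM in 67NR scaffolds, 531, 618 and 633 CPM in 4T07 scaffolds and 699, 616 and 838 CPM in 4T1 scaffolds. The 4T07 libraries lay under all Control and 67NR libraries and overlapped those of 4T1, and no tumor group passed against Control (4T07: -0.68 ± 0.18, adjusted p = 0.0240). Control scaffolds lay above Control lungs by a log2 fold change of 6.17 ± 0.22, adjusted p = 6.76e-11, and above Control spleens by 6.90 ± 0.24, adjusted p = 4.69e-11. In tumors Il1rn rose from 14.8 ± 1.78 CPM in 67NR to 60.7 ± 8.26 CPM in 4T07 (1.79 ± 0.19, adjusted p = 2.92e-06) and 35.2 ± 2.48 CPM in 4T1 (1.06 ± 0.19, adjusted p = 0.000490). In lungs it was 22.6 ± 1.81 CPM with 4T1 and 10.3 ± 2.08 CPM with 4T07 tumors (1.09 ± 0.20, adjusted p = 0.000148). Control lungs held 13.9 ± 2.80 CPM and 67NR lungs 9.58, 10.2 and 9.98 CPM. The 4T1 value against Control was under the fold threshold (0.72 ± 0.19, adjusted p = 0.0202). Il1rn did not pass between 4T1 and 67NR tumors without 67NR library 21 or 4T1 library 43 or with the stricter filter (log2 fold change 0.93 to 0.99). Il1rn lost its call between 4T1 and 4T07 lungs without 4T07 libraries 26 or 27 (log2 fold change 0.98 to 0.99).

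Il33, an alarmin kept in the nuclei of epithelial, endothelial and stromal cells, fell in 4T07 lungs. It stood at 63.8, 73.6 and 63.1 CPM in Control lungs, 32.8, 54.2 and 42.7 CPM in 67NR lungs, 9.74, 9.09 and 13.9 CPM in 4T07 lungs and 47.3, 28.2 and 50.2 CPM in 4T1 lungs. The 4T07 libraries lay under all other lungs (-2.55 ± 0.24, adjusted p = 3.72e-08 against Control), and 4T1 lungs were above them (1.90 ± 0.24, adjusted p = 2.77e-06); 4T1 against Control was -0.66 ± 0.21, adjusted p = 0.0612. Structural markers moved with it: in 4T07 lungs, 3 of 4 lung epithelial and 4 of 4 endothelial markers were lower than in Control, and their part in the fall of Il33 was not tested. The endothelial sum was 2472 to 2623 CPM in Control and 697 to 1143 CPM in 4T07 lungs. In tumors Il33 went the other way, from 9.55 ± 3.03 CPM in 67NR to 33.5 ± 7.43 in 4T07 (1.57 ± 0.25, adjusted p = 0.000151) and 38.8 ± 4.83 in 4T1 (1.83 ± 0.25, adjusted p = 4.38e-05), where all 4 and 3 of 4 fibroblast markers were also higher, at sums of 606 to 815, 3504 to 5402 and 4187 to 7035 CPM. In scaffolds it was lower with 4T07 tumors, 39.9, 48.9 and 35.6 against 58.1, 89.2 and 96.3 CPM in Control (-1.10 ± 0.24, adjusted p = 0.00710). Il33 did not pass between 4T07 and Control scaffolds without Control library 3 (log2 fold change -0.99).

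Il1a, the agonist released from damaged cells, was low throughout, at a highest group mean of 6.72 CPM in Control lungs. It fell in 4T07 lungs to 2.25 ± 0.636 CPM (-1.50 ± 0.32, adjusted p = 0.000738) and in 4T07 scaffolds to 0.556 ± 0.0785 CPM, against 1.68, 5.07 and 0.630 CPM in the Control libraries (-2.26 ± 0.63, adjusted p = 0.0279). In tumors it rose from 0.269, 0 and 0 CPM in 67NR to 3.01, 3.08 and 2.26 CPM in 4T07 (30.9-fold with a 95% counting interval of 5.23 to 1250.0, adjusted p = 0.000480) and 4.57, 2.87 and 3.67 CPM in 4T1 (40.5-fold with a 95% counting interval of 6.98 to 1628, adjusted p = 0.000180). Il18, which drives interferon gamma release, fell in both spleens: 138, 143 and 166 CPM in Control, 46.9, 38.3 and 49.8 in 4T07 (-1.55 ± 0.20, adjusted p = 4.22e-05) and 41.0, 61.7 and 31.5 in 4T1 (-1.49 ± 0.20, adjusted p = 5.01e-05). Il18bp, the soluble protein that neutralises IL-18, stood at 10.2, 8.95 and 5.93 CPM in 67NR tumors, 56.0, 46.1 and 28.8 CPM in 4T07 tumors and 11.0, 8.61 and 18.8 CPM in 4T1 tumors. It was higher in 4T07 than in 67NR tumors (2.13 ± 0.32, adjusted p = 9.62e-05) and lower in 4T1 than in 4T07 (-1.72 ± 0.30, adjusted p = 0.00128), and the 4T07 libraries overlapped neither line. Il1a did not pass between 4T07 and Control scaffolds without Control library 2 (log2 fold change -1.14, adjusted p 0.290).

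The 6 IL-1 family receptor genes Il1r2, Il1r1, Il1rl2, Il1rl1, Il18r1 and Il18rap follow each other on chromosome 1 with no other protein-coding gene between them (RefSeq, GRCm38.p6), and they are described in that order of neighbours. Il1r1, the signaling IL-1 receptor, fell in 4T07 (-1.06 ± 0.19, adjusted p = 0.000707) and 4T1 spleens (-1.04 ± 0.19, adjusted p = 0.000768), where the decoy Il1r2 next to it rose. The libraries of Il1r1 were 21.6, 23.8 and 28.5 CPM in Control, 10.7, 9.15 and 11.7 in 4T07 and 9.11, 11.5 and 9.37 CPM in 4T1 spleens. In lungs Il1r1 was 36.6 ± 2.76 CPM in Control, 19.3 ± 5.51 in 4T07 (-0.87 ± 0.18, adjusted p = 0.000526) and 24.9 ± 2.37 in 4T1 (-0.54 ± 0.17, adjusted p = 0.0622), differences under the fold threshold. Il1r1 was higher in 4T1 (1.02 ± 0.23, adjusted p = 0.00352) than in 67NR tumors, at 44.7 ± 7.07 against 19.1 ± 0.195 CPM. The 4T07 tumors held a similar level, 45.5 ± 14.3 CPM, just under the fold threshold against 67NR (0.997 ± 0.23, adjusted p = 0.00331). Il1r1 lost its call between 4T07 and Control spleens without Control library 9 or 4T07 library 29 (log2 fold change -0.96 to -0.98). The Il1r1 call between 4T1 and Control spleens was lost without Control library 9 or 4T1 library 40 (log2 fold change -0.98). Il1r1 did not pass between 4T1 and 67NR tumors without 67NR libraries 19 or 21 or 4T1 libraries 44 or 45, with DESeq2, with DESeq2 size factors, with the stricter filter or with only the compared groups in the fit (log2 fold change 0.90 to 0.99).

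The chains of the IL-18 receptor, neighbours in the cluster, differed in direction as well. Il18rap, the accessory chain, stood at 16.7, 15.3 and 20.6 CPM in Control lungs, 21.8, 14.6 and 12.6 CPM in 67NR lungs, 37.5, 46.9 and 41.6 CPM in 4T07 lungs and 87.7, 116 and 54.0 CPM in 4T1 lungs, rising in 4T07 (1.32 ± 0.24, adjusted p = 0.000109) and 4T1 lungs (2.30 ± 0.23, adjusted p = 9.21e-07) without overlap with Control. Il18r1, the binding chain, stood at 103, 97.6 and 106 CPM in Control lungs, 99.8, 85.1 and 107 CPM in 67NR lungs, 34.1, 25.2 and 45.3 CPM in 4T07 lungs and 64.5, 69.2 and 78.5 CPM in 4T1 lungs. It fell in 4T07 lungs (-1.49 ± 0.17, adjusted p = 4.87e-07), with 4T1 at -0.52 ± 0.16, adjusted p = 0.0580. Lung epithelial and endothelial marker sums were also lower in 4T07 than in Control lungs, and their part in the Il18r1 values was not tested. In 4T07 spleens Il18rap rose (1.16 ± 0.30, adjusted p = 0.00887), with libraries that overlapped Control, and Il18r1 fell (-1.55 ± 0.28, adjusted p = 0.000706). Il18rap was also higher in 4T07 (1.08 on the log2 scale) and 4T1 tumors (1.32) than in 67NR tumors. The Il18rap call between 4T07 and Control spleens was lost without Control library 7 or 4T07 library 30 (log2 fold change 0.82 to 0.89). Il18rap did not pass between 4T07 and 67NR tumors without 67NR library 21 or 4T07 library 31 (log2 fold change 0.85 to 0.92).

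Il1rl1, also called ST2, the receptor for IL-33, was highest in 67NR tumors. Its levels were 44.6, 78.6 and 68.0 CPM in 67NR tumors, 14.4, 13.2 and 16.6 CPM in 4T07 tumors and 8.78, 8.20 and 6.69 CPM in 4T1 tumors. No library overlapped between the lines: 4T07 (-2.37 ± 0.24, adjusted p = 2.1e-06) and 4T1 tumors (-3.21 ± 0.25, adjusted p = 1.66e-07) lay under 67NR tumors, while the IL-33 ligand gene was higher in them. Mast cell markers, which mark a cell type known for ST2, summed to 60.1 to 72.0, 20.3 to 39.5 and 24.3 to 44.9 CPM in 67NR, 4T07 and 4T1 tumors, with 3 of 4 lower in each than in 67NR, and their part was not tested. Il1rl1 rose in 4T07 lungs, from 4.88, 3.79 and 3.88 CPM in Control to 10.6, 16.1 and 11.7 CPM (1.67 ± 0.26, adjusted p = 1.98e-05), and was 3.06, 3.67 and 4.95 CPM in 4T1 lungs (-1.76 ± 0.26, adjusted p = 1.31e-05 against 4T07). It rose in 4T07 (1.79 ± 0.35, adjusted p = 0.00125) and 4T1 spleens (1.70 ± 0.35, adjusted p = 0.00189). Il1rl2, the IL-36 receptor, was higher in 4T07 (2.19) and 4T1 tumors (2.65), at 8.62 ± 0.349 and 11.5 ± 2.94 against 1.57 ± 0.198 CPM, and Il1rap, the shared co-receptor, passed in no comparison within a tissue.

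**Figure D4:**
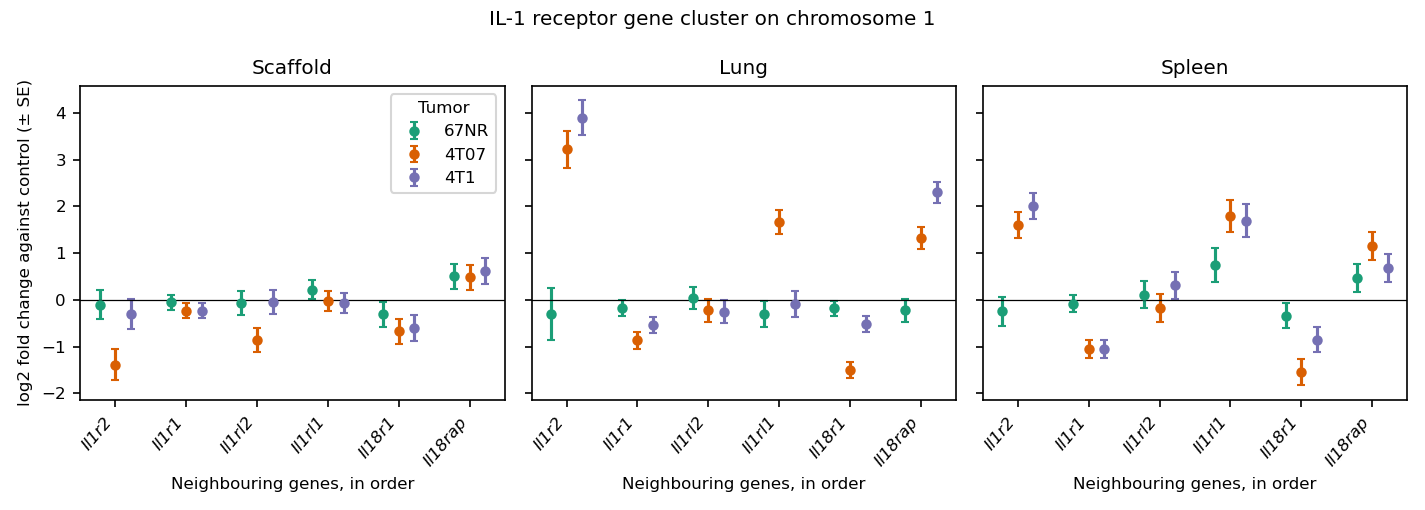
Log2 fold change against Control (± SE) of the 6 neighbouring IL-1 family receptor genes, in their order on chromosome 1, in scaffolds, lungs and spleens; color marks the tumor line. Il1r2 and Il18rap lie above 0 in 4T07 and 4T1 lungs and spleens, and Il1r1 and Il18r1 lie below 0 there.

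Of 8 receptor chains of the common gamma family, on which lymphocytes depend for growth and survival, 3 fell in 4T07 and 3 in 4T1 spleens, where 10.3% and 10.0% of all genes fell, and none rose. Il7r, the IL-7 receptor chain of naive and memory T cells and early lymphocytes, stood at 115, 183 and 272 CPM in Control spleens, 191, 278 and 205 CPM in 67NR spleens, 53.1, 85.6 and 96.5 CPM in 4T07 spleens and 33.3, 49.0 and 30.4 CPM in 4T1 spleens. It fell in 4T07 (-1.09 ± 0.28, adjusted p = 0.00970) and in 4T1 spleens (-2.08 ± 0.30, adjusted p = 6.81e-05), with no overlap with Control. Il2rg, the common gamma chain, fell in 4T07 spleens from 231, 265 and 164 to 119, 80.8 and 82.2 CPM (-1.06 ± 0.22, adjusted p = 0.00188). The 67NR spleens also lay under all Control libraries in Il2rg, at 114, 146 and 117 CPM. That difference was under the fold threshold (-0.91 ± 0.22, adjusted p = 0.0337). Il9r fell in 4T07 (-2.31 ± 0.40, adjusted p = 0.000489) and 4T1 spleens (-1.17 ± 0.37, adjusted p = 0.0252), from 12.4, 9.69 and 9.06 CPM to 3.29, 0.690 and 1.72 and 2.16, 4.65 and 4.80 CPM. Il2ra, the alpha chain of the high-affinity IL-2 receptor, fell in 4T1 spleens (-1.16 ± 0.34, adjusted p = 0.0175), to 4.08, 1.71 and 1.60 CPM, and was lower there than in 4T07 spleens (-1.45 ± 0.34, adjusted p = 0.0354). Lymphocyte markers moved with these receptors: in Control, 4T07 and 4T1 spleens B cell sums were 801 to 949, 336 to 436 and 224 to 365 CPM, T cell sums 242 to 334, 106 to 135 and 105 to 134 CPM and NK cell sums 133 to 182, 41.2 to 72.5 and 32.4 to 62.9 CPM. Of 6 T cell markers 5 were lower in 4T07 and 3 in 4T1 spleens, of 5 B cell markers 2 and 3, and of 4 NK cell markers 3 and 3; their part in the receptor values was not tested. The Il7r call between 4T07 and Control spleens was lost without Control library 9 or 4T07 library 28 (log2 fold change -0.76 to -0.85). Il2rg did not pass between 4T07 and Control spleens without Control library 8 or 4T07 library 29 (log2 fold change -0.92 to -0.99). Il9r lost its call between 4T1 and Control spleens without 4T1 library 40 (log2 fold change -0.88). The Il2ra call between 4T1 and Control spleens was lost without 4T1 libraries 41 or 42 (log2 fold change -0.95 to -0.96). Il2ra did not pass between 4T1 and 4T07 spleens without 4T07 libraries 29 or 30 or 4T1 libraries 41 or 42 (log2 fold change -1.23 to -1.43, adjusted p 0.1001 to 0.160).

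In 4T07 lungs, 2 of the 8 common gamma receptors rose and none fell, where 15.3% of all genes rose and 13.7% fell. Il21r, the IL-21 receptor, stood at 2.96, 2.71 and 2.27 CPM in Control lungs, 2.68, 1.95 and 3.76 CPM in 67NR lungs, 16.3, 19.6 and 13.4 CPM in 4T07 lungs and 5.31, 2.82 and 2.55 CPM in 4T1 lungs, so that 4T07 lay above all other lungs (2.69 ± 0.30, adjusted p = 3.07e-07 against Control, and 4T1 against 4T07 -2.26 ± 0.28, adjusted p = 1.92e-06). Il2ra rose to 8.47, 11.6 and 9.98 from 2.62, 2.71 and 3.24 CPM (1.86 ± 0.26, adjusted p = 5.54e-06) and was lower in 4T1 than in 4T07 (-1.90 ± 0.25, adjusted p = 5.04e-06). Il7, the ligand made by stroma, fell in 4T07 lungs from 9.76 ± 1.76 to 4.25 ± 0.870 CPM (-1.13 ± 0.26, adjusted p = 0.00110). B cell markers, all 5 higher, summed to 89.5 to 117 CPM in Control and 321 to 431 CPM in 4T07 lungs, T cell markers to 49.4 to 53.9 and 78.1 to 103 CPM, and their part was not tested. Il4ra, the receptor chain shared by IL-4 and IL-13, was 206, 229 and 159.7 CPM in 4T1 against 59.7, 61.3 and 61.0 CPM in 4T07 lungs (1.66 ± 0.18, adjusted p = 4.56e-07), with Control between them at 114, 136 and 94.0 CPM. Il7 lost its call between 4T07 and Control lungs without Control library 5 (log2 fold change -0.99).

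In tumors Il7r stood at 12.4, 6.71 and 4.23 CPM in 67NR tumors, 172, 86.0 and 114 CPM in 4T07 tumors and 35.8, 31.8 and 33.7 CPM in 4T1 tumors, and none of the 3 lines overlapped. It was higher in 4T07 (3.74 ± 0.32, adjusted p = 4.04e-07) and 4T1 (1.92 ± 0.31, adjusted p = 0.000248) than in 67NR tumors and lower in 4T1 than in 4T07 (-1.82 ± 0.27, adjusted p = 0.000341). Its ligand Il7 rose in 4T07 tumors (1.12) and was lower in 4T1 than in 4T07 (-1.35), and Il15 and Il15ra, a pair that sustains NK and memory T cells, rose in 4T07 tumors (1.31 and 1.63), with Il15ra also higher in 4T1 (1.24) and Il15 lower in 4T1 than in 4T07 (-1.06). Il2ra was 0.818 ± 0.702, 14.9 ± 4.80 and 5.24 ± 0.802 CPM in 67NR, 4T07 and 4T1 tumors (3.88 and 2.44 against 67NR, -1.44 between 4T1 and 4T07). Il2rg ran the other way, at 127, 101 and 82.7 CPM in 67NR, 36.9, 26.3 and 53.6 in 4T07 (-1.66 ± 0.26, adjusted p = 0.000142) and 61.3, 65.6 and 37.1 CPM in 4T1 (-1.12 ± 0.26, adjusted p = 0.00358). In 4T1 tumors Il2rb and Il21r were lower than in 67NR (-1.39 and -1.25). T cell markers summed to 15.9 to 32.5, 38.3 to 113 and 24.4 to 84.0 CPM and NK cell markers to 138 to 154, 36.1 to 47.5 and 7.77 to 13.5 CPM, with 4 and 2 of 6 T cell markers higher and 2 and 3 of 4 NK cell markers lower in 4T07 and 4T1 than in 67NR; their part was not tested. The Il15 call between 4T1 and 4T07 tumors was lost without 4T07 libraries 31 or 32 or 4T1 libraries 43 or 45 (log2 fold change -0.87 to -1.10, adjusted p 0.0505 to 0.0820). Il2rg did not pass between 4T1 and 67NR tumors without 67NR library 19 or 4T1 library 45 (log2 fold change -0.94 to -0.98). Il21r lost its call between 4T1 and 67NR tumors without 67NR library 19 or 4T1 library 45 (log2 fold change -0.91 to -1.12, adjusted p 0.0518 to 0.0541).

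In scaffolds Il7r stood at 626, 556 and 616 CPM in Control scaffolds, 574, 612 and 664 CPM in 67NR scaffolds, 612, 695 and 1104 CPM in 4T07 scaffolds and 860.2, 516 and 819 CPM in 4T1 scaffolds, above every lung and spleen library, and no tumor group passed against Control. Il2rg was lower with 4T07 tumors, at 42.6, 41.7 and 33.4 against 108, 108 and 70.8 CPM in Control (-1.44 ± 0.29, adjusted p = 0.00482), and higher in 4T1 than in 4T07 scaffolds (1.35 ± 0.29, adjusted p = 0.0489), where the 4T1 libraries were 73.8, 168 and 56.9 CPM. Il15ra was also higher in 4T1 than in 4T07 scaffolds, at 11.1, 21.6 and 14.5 against 5.14, 5.50 and 10.6 CPM (1.18 ± 0.28, adjusted p = 0.0697). Il2, the T cell growth factor, was counted in every library and passed in no comparison, with group means of 6.80 to 14.2 CPM. Its level was 12.0 ± 2.71 CPM in Control scaffolds and 13.0 ± 1.28 CPM in Control spleens, tissues whose T cell marker sums were 13.3 to 16.8 and 242 to 334 CPM. Il4, the type 2 ligand of this family, lay between group means of 0.398 and 2.57 CPM and passed in no comparison within a tissue. Il2rg lost its call between 4T1 and 4T07 scaffolds without 4T07 libraries 23 or 24 or 4T1 library 35 or with only the compared groups in the fit (log2 fold change 0.81 to 1.42, adjusted p 0.0664 to 0.201). The Il15ra call between 4T1 and 4T07 scaffolds was lost without 4T07 libraries 22 or 23 or 4T1 libraries 35 or 36 or with only the compared groups in the fit (log2 fold change 0.94 to 1.19, adjusted p 0.130 to 0.243).

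Of 6 receptors for IL-3, IL-5, IL-13 and related type 2 cytokines, 6 were higher in 4T07 than in 67NR tumors, 4 rose in 4T07 lungs and 2 in 4T07 scaffolds (all genes, 17.1%, 15.3% and 3.85%), and none was lower in these comparisons. Their cytokine genes, 5 members, had at most 1 that could be tested in a tissue. Il5ra, the receptor chain of eosinophils and some B cells, stood at 1.05, 0.721 and 1.94 CPM in Control lungs, 1.53, 1.30 and 1.01 CPM in 67NR lungs, 5.50, 9.29 and 6.29 CPM in 4T07 lungs and 1.29, 1.27 and 0.600 CPM in 4T1 lungs, and 4T07 overlapped no other group. It rose in 4T07 lungs (2.54 ± 0.38, adjusted p = 1.24e-05) and was lower in 4T1 than in 4T07 (-2.77 ± 0.38, adjusted p = 6e-06). Eosinophil markers moved with it, with 3 of 4 higher and 1 lower in 4T07 than in Control lungs and a sum of 793 to 1138 against 15.9 to 32.3 CPM, and basophil markers summed to 52.5 to 80.3 against 0.361 to 1.57 CPM; their part was not tested. Il13ra2, the decoy receptor for IL-13, went from 0.349, 0 and 0 to 2.12, 2.27 and 2.17 CPM (19.1-fold with a 95% counting interval of 4.86 to 165, adjusted p = 0.000325), and Il31ra and Il17rb, receptor chains for IL-31 and IL-25, rose to 2.26 ± 0.349 (2.71) and 2.81 ± 0.609 CPM (1.67). Il31ra and Il17rb were lower in 4T1 than in 4T07 lungs (log2 fold change -1.44 and -2.02), and so was Il13ra2 (4T07 higher by 14.6-fold with a 95% counting interval of 4.54 to 74.4, adjusted p = 0.000455). Il13ra1, the signaling IL-13 receptor chain, was higher in 4T1 than in 4T07 lungs (1.27) and spleens (1.08), at 38.8 ± 8.53 against 15.5 ± 3.52 CPM in lungs. The Il13ra1 call between 4T1 and 4T07 spleens was lost without 4T07 libraries 29 or 30 or 4T1 libraries 40 or 42 or with only the compared groups in the fit (log2 fold change 0.83 to 1.15, adjusted p 0.132 to 0.258).

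Il3ra, the IL-3 receptor chain of basophils, mast cells and progenitors, was 1 of the 2 members that rose in 4T07 scaffolds. It stood at 8.39, 9.66 and 8.81 CPM in Control scaffolds, 13.9, 8.99 and 12.9 CPM in 67NR scaffolds, 30.2, 23.8 and 41.2 CPM in 4T07 scaffolds and 14.7, 14.4 and 16.5 CPM in 4T1 scaffolds. The 4T07 libraries lay above the other 9 (1.68 ± 0.23, adjusted p = 0.000626 against Control, and 4T1 against 4T07 -1.03 ± 0.22, adjusted p = 0.0476). In 4T07 and Control scaffolds the basophil sum was 5.28 to 19.1 and 0.944 to 4.20 CPM, the eosinophil sum 54.1 to 355 and 15.8 to 18.0 CPM, and the mast cell sum 35.4 to 44.0 and 64.3 to 89.8 CPM, with 1 of 2 basophil and 2 of 4 eosinophil markers higher and 3 of 4 mast cell markers lower; their part was not tested. Il31ra rose there as well, to 2.45, 1.57 and 2.64 from 0.839, 0.475 and 0.315 CPM (1.92 ± 0.56, adjusted p = 0.0360). In tumors Il3ra was 3.49, 2.80 and 2.54 CPM in 67NR, 16.3, 11.1 and 19.8 in 4T07 (2.15 ± 0.32, adjusted p = 7.61e-05) and 5.12, 6.15 and 4.96 CPM in 4T1 (-1.47 ± 0.28, adjusted p = 0.00251 against 4T07). Il5ra, Il13ra2 and Il31ra followed it. Il5ra was higher in 4T07 than in 67NR tumors 11.8-fold with a 95% counting interval of 3.81 to 59.5, adjusted p = 0.00470, Il13ra2 27.0-fold with a 95% counting interval of 7.21 to 228, adjusted p = 0.000716, and Il31ra 11.2-fold with a 95% counting interval of 2.83 to 96.8, adjusted p = 0.00624. Each was lower in 4T1 than in 4T07 tumors (log2 fold change -1.99, -2.32 and -2.49). Il13ra1 was higher in both 4T07 (1.64) and 4T1 tumors (1.98), at 58.1 ± 5.49 and 71.0 ± 13.1 against 15.7 ± 7.13 CPM, and Il17rb passed in 4T07 tumors (5.66-fold with a 95% counting interval of 1.70 to 29.6, adjusted p = 0.0457) at 1.56 ± 0.509 CPM. Il3ra did not pass between 4T1 and 4T07 scaffolds without 4T07 library 24 or 4T1 library 35 or with only the compared groups in the fit (log2 fold change -0.79 to -1.02, adjusted p 0.0682 to 0.176). Il31ra lost its call between 4T07 and Control scaffolds without Control libraries 2 or 3 or 4T07 library 24 (log2 fold change 1.60 to 1.83, adjusted p 0.104 to 0.128). The Il5ra call between 4T1 and 4T07 tumors was lost without 4T07 libraries 31 or 33 or 4T1 libraries 43, 44 or 45 (log2 fold change -1.70 to -2.40, adjusted p 0.0712 to 0.138). Il13ra2 did not pass between 4T1 and 4T07 tumors without 4T07 library 33 or 4T1 library 44 (log2 fold change -1.80 to -1.85, adjusted p 0.0702 to 0.0779). Il31ra lost its call between 4T1 and 4T07 tumors without 4T07 library 31 or 4T1 libraries 44 or 45 or with DESeq2 (log2 fold change -2.25 to -2.61, adjusted p 0.0539 to 0.0839). The Il17rb call between 4T07 and 67NR tumors was lost without 67NR libraries 19 or 21 or 4T07 libraries 32 or 33, with DESeq2, without a filter on low counts or with only the compared groups in the fit (log2 fold change 1.57 to 2.23, adjusted p 0.0681 to 0.153).

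Il6 and Il11, gp130 cytokines of inflammation and of stroma, had their highest levels in tumors. Il6 stood at 0.269, 0 and 0 CPM in 67NR tumors, 4.42, 4.54 and 5.08 CPM in 4T07 tumors and 2.38, 2.05 and 6.47 CPM in 4T1 tumors, and 67NR overlapped neither of the others (4T07: 50.2-fold with a 95% counting interval of 8.70 to 2012, adjusted p = 0.000284; 4T1: 38.3-fold with a 95% counting interval of 6.59 to 1543, adjusted p = 0.000792). Elsewhere its group means stayed under 1 CPM, with a rise from 0, 0.180 and 0 to 0.212, 0.619 and 1.08 CPM in 4T07 lungs (11.1-fold with a 95% counting interval of 1.54 to 486, adjusted p = 0.0308). Il11 stood at 4.03, 4.20 and 3.10 CPM in 67NR tumors, 13.0, 38.3 and 24.6 CPM in 4T07 tumors and 7.50, 5.33 and 10.4 CPM in 4T1 tumors, highest in 4T07, which lay above both 67NR (2.49 ± 0.40, adjusted p = 0.000154) and 4T1 (-1.66 ± 0.35, adjusted p = 0.00521, 4T1 minus 4T07). Il6st, the shared gp130 chain, rose from 117, 84.2 and 82.4 CPM in 67NR to 282, 231 and 323 CPM in 4T07 tumors (1.32 ± 0.18, adjusted p = 3.43e-05), with 4T1 at 162, 185 and 174 CPM (0.68 ± 0.18, adjusted p = 0.00798). Il6ra and Il11ra1, the ligand-binding chains, passed in no comparison within a tissue; Il11ra1 was 96.8 ± 38.4 CPM in Control scaffolds, 30.7 ± 2.81 in lungs and 11.3 ± 3.46 CPM in spleens, each step past the threshold (1.86 and 1.39). Il6 did not pass between 4T07 and Control lungs without 4T07 library 27 (log2 fold change 2.56, adjusted p 0.132).

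**Figure D5:**
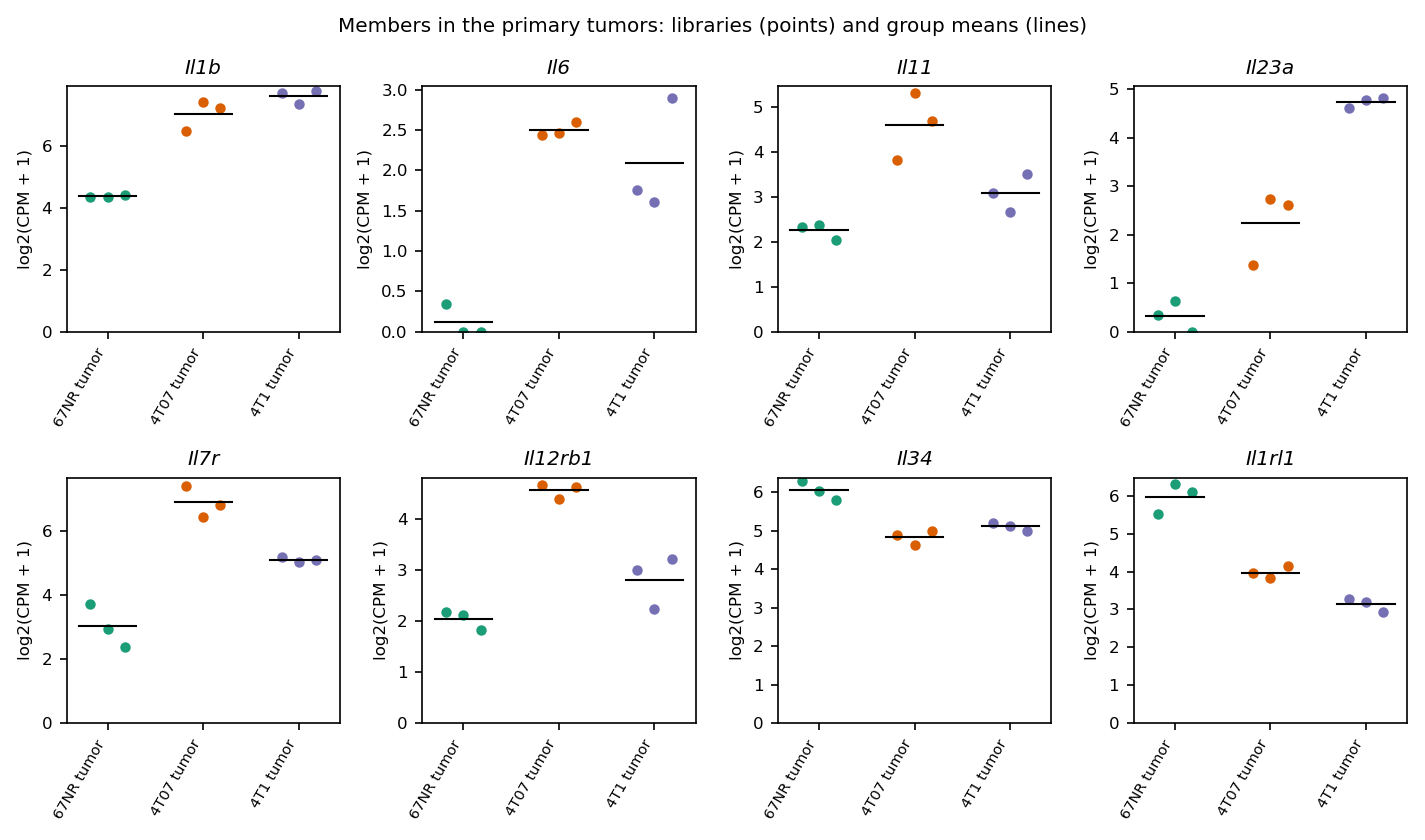
Levels of 8 members in the primary tumors as log2(CPM + 1), with 3 libraries per line (points) and the mean of the log values (line). Il23a is lowest in 67NR and highest in 4T1, Il11, Il7r and Il12rb1 are highest in 4T07, and Il34 and Il1rl1 are highest in 67NR tumors.

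Il23a, the p19 subunit of IL-23, was lowest in 67NR, higher in 4T07 and highest in 4T1 tumors. It stood at 0.269, 0.559 and 0 CPM in 67NR tumors, 1.61, 5.62 and 5.08 CPM in 4T07 tumors and 23.6, 26.4 and 27.4 CPM in 4T1 tumors. No line overlapped another, with 4T07 above 67NR (14.7-fold with a 95% counting interval of 4.77 to 73.2, adjusted p = 0.000923), 4T1 above 67NR (92.8-fold with a 95% counting interval of 31.5 to 452, adjusted p = 9.1e-07) and 4T1 above 4T07 (log2 fold change 2.70 ± 0.37, adjusted p = 0.000158). Outside tumors its group means were at most 1.41 CPM, and in spleens it fell from 0.971, 0.923 and 1.51 CPM in Control to 0, 0.173 and 0 CPM in 4T07 (Control higher by 16.0-fold with a 95% counting interval of 2.49 to 672, adjusted p = 0.0205). The 4T1 spleens held no count of Il23a, so Control was at least 1.59-fold higher than a floor of 3 counts per library (adjusted p = 0.00830). Its partner Il12b, the p40 subunit shared by IL-12 and IL-23, passed in no tumor comparison, at 3.13 ± 0.778, 2.58 ± 1.11 and 1.59 ± 0.487 CPM in 67NR, 4T07 and 4T1.

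In scaffolds Il12b stood at 6.08, 5.38 and 5.51 CPM in Control scaffolds, 4.99, 4.65 and 3.44 CPM in 67NR scaffolds, 1.96, 0.786 and 1.40 CPM in 4T07 scaffolds and 1.63, 1.86 and 2.33 CPM in 4T1 scaffolds. The 4T07 libraries lay under all Control and 67NR libraries (-2.11 ± 0.34, adjusted p = 0.00126 against Control), and 4T1 against Control was -1.64 ± 0.33, adjusted p = 0.157, a difference that passed without a filter on low counts. In 4T07 lungs Il12b passed at 1.83 ± 0.943 against 0.813 ± 0.302 CPM (1.23 ± 0.54, adjusted p = 0.0744), with libraries that overlapped. Il12rb1, the receptor chain shared by IL-12 and IL-23, stood at 3.49, 3.36 and 2.54 CPM in 67NR tumors, 24.3, 20.0 and 23.4 CPM in 4T07 tumors and 6.95, 3.69 and 8.20 CPM in 4T1 tumors, highest in 4T07 tumors (2.59 ± 0.32, adjusted p = 1.63e-05 against 67NR, and 4T1 against 4T07 -1.78 ± 0.29, adjusted p = 0.000624). It also rose in 4T07 lungs (1.86), to 2.04 ± 0.799 from 0.571 ± 0.0672 CPM. Il12a, the p35 subunit, fell in 4T1 spleens to 0.949 ± 0.408 from 3.22 ± 1.39 CPM (-1.49 ± 0.51, adjusted p = 0.0365). Il12b lost its call between 4T07 and Control lungs without Control libraries 4 or 6 or 4T07 libraries 25 or 26 or with DESeq2 (log2 fold change 0.85 to 1.32, adjusted p 0.108 to 0.308). The Il12a call between 4T1 and Control spleens was lost without Control library 7 or 4T1 library 40 (log2 fold change -1.15 to -1.18, adjusted p 0.136 to 0.144).

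Il10, the anti-inflammatory cytokine, had no count in Control or 4T1 lungs and stood at 1.06, 1.24 and 0.434 CPM in 4T07 lungs, at least 1.76-fold above a floor of 3 counts per library in Control and 2.01-fold above that in 4T1 (adjusted p = 0.00541 and 0.00487). Il10 stood at 0, 0 and 0.434 CPM in 67NR lungs, which reached the lowest 4T07 library, and the 4T07 levels rest on 5, 6 and 2 counts. In tumors it was 2.01, 1.45 and 3.67 CPM in 4T07 and 0.549, 0.205 and 0.432 CPM in 4T1 (-2.40 ± 0.62, adjusted p = 0.0165). Il10ra, its ligand-binding receptor chain on leukocytes, fell in 4T07 (-1.17 ± 0.22, adjusted p = 0.000918) and 4T1 spleens (-1.09 ± 0.22, adjusted p = 0.00140), from 56.7, 62.3 and 48.5 CPM to 23.7, 17.8 and 25.2 and 18.0, 31.6 and 16.7 CPM. It rose in 4T07 lungs, from 11.2, 11.5 and 11.8 to 21.0, 30.4 and 28.4 CPM (1.27 ± 0.19, adjusted p = 1.6e-05), and was lower in 4T1 than in 4T07 tumors (-1.18). Il24, a relative of IL-10, was higher in 4T07 (3.09) and 4T1 tumors (3.63), at 10.2, 2.00 and 5.36 and 6.95, 5.33 and 12.3 against 0.269, 0.839 and 0.565 CPM in 67NR, and the 12 scaffolds held it in 1 library only, at 0.180 CPM. Il20rb, a receptor chain for IL-20 and IL-24, fell in 4T07 scaffolds from 30.0, 18.2 and 21.7 to 10.2, 8.45 and 6.52 CPM (-1.62 ± 0.25, adjusted p = 0.00102) and in 4T07 lungs (-1.47), with 4T1 lungs above 4T07 (1.38). The part of the lower lung epithelial and endothelial marker sums of 4T07 lungs in the Il20rb values was not tested. Il22ra2 fell in 4T07 (-1.88) and 4T1 spleens (-1.20), from 5.05 ± 0.861 to 1.19 ± 0.573 and 1.81 ± 0.307 CPM. Il10 lost its call between 4T1 and 4T07 tumors without 4T07 library 33 or 4T1 library 44 (log2 fold change -1.97 to -2.10, adjusted p 0.0688 to 0.0774). The Il10ra call between 4T1 and Control spleens was lost without 4T1 libraries 40 or 42 (log2 fold change -0.96 to -0.97). Il10ra did not pass between 4T1 and 4T07 tumors without 4T07 libraries 31 or 33 or 4T1 libraries 43, 44 or 45 (log2 fold change -0.93 to -1.32, adjusted p 0.0555 to 0.114).

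Of the IL-17 family, Il17ra, a receptor chain shared by several IL-17 cytokines, rose in 4T1 lungs. It stood at 91.0, 87.3 and 64.4 CPM in Control lungs, 60.7, 61.7 and 48.8 CPM in 67NR lungs, 158, 125 and 112 CPM in 4T07 lungs and 199, 316 and 138 CPM in 4T1 lungs, and 4T1 lay above Control (1.44 ± 0.23, adjusted p = 0.000268). Il17rd, a receptor-like chain also known to restrain FGF signaling, stood at 79.7, 70.5 and 73.0 CPM in Control lungs, 84.5, 107 and 91.3 CPM in 67NR lungs, 20.5, 25.4 and 34.3 CPM in 4T07 lungs and 75.5, 75.8 and 78.0 CPM in 4T1 lungs. It fell in 4T07 lungs (-1.42 ± 0.17, adjusted p = 9.81e-07) and 4T07 spleens (-1.50 ± 0.30, adjusted p = 0.00162), and 4T1 lungs were above 4T07 (1.47 ± 0.17, adjusted p = 8.15e-07). The 4T1 spleens held 4.63 ± 2.00 against 10.7 ± 2.21 CPM in Control, without overlap but just under the fold threshold (-0.965 ± 0.29, adjusted p = 0.0213). In tumors Il17rd was higher in 4T07 (1.84) and 4T1 (2.04), at 11.0 ± 0.419 and 12.3 ± 2.20 against 2.57 ± 1.18 CPM. Il17d, a ligand made outside the T cell lineage, fell in 4T07 lungs (-1.42), with 4T1 above 4T07 (1.56), and was higher in 4T1 than in 67NR (2.55) and 4T07 tumors (1.91), where it reached 2.63 ± 0.957 CPM. Il17re, the IL-17C receptor of epithelium, was 34.9 ± 0.706 CPM in 4T1 and 16.7 ± 6.09 CPM in 4T07 lungs (1.02), and passed in 4T07 tumors (1.42) with libraries that overlapped 67NR, and was 2.18 without 67NR library 20. Lung epithelial and endothelial marker sums were lower in 4T07 than in Control lungs. Their part in the lung values of Il17rd, Il17d and Il17re was not tested. Il17rc, the partner of Il17ra for IL-17A, was lower in 4T1 than in 67NR (-1.35) and 4T07 tumors (-1.18), at 6.12 ± 1.35, 13.6 ± 1.27 and 14.3 ± 4.02 CPM. Il17a had no count, and Il17f had 0.971, 0.462 and 0.647 CPM in Control and no count in 4T1 spleens, which is at or near the floor. Il17d did not pass between 4T1 and 67NR tumors without 4T1 library 44 (log2 fold change 2.24, adjusted p 0.0584). Il17d lost its call between 4T1 and 4T07 tumors without 4T07 libraries 31 or 33 or 4T1 libraries 43, 44 or 45 or with DESeq2 (log2 fold change 1.46 to 2.12, adjusted p 0.0672 to 0.185). The Il17re call between 4T1 and 4T07 lungs was lost without 4T07 libraries 25 or 26 or 4T1 library 38, with DESeq2, with DESeq2 size factors, with the stricter filter or with only the compared groups in the fit (log2 fold change 0.78 to 0.99). Il17re did not pass between 4T07 and 67NR tumors without 67NR libraries 19 or 21 or 4T07 libraries 32 or 33, with DESeq2 or with only the compared groups in the fit (log2 fold change 1.11 to 1.41, adjusted p 0.0650 to 0.160). Il17rc lost its call between 4T1 and 4T07 tumors without 4T07 library 31 or 4T1 library 43 (log2 fold change -0.96 to -1.04, adjusted p 0.0493 to 0.0513). Il17f lost its call there without 4T1 library 40 or 42 (adjusted p = 0.103 in each).

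Il16, a chemoattractant for CD4 cells kept as a precursor in lymphocytes and granulocytes, fell in spleens and rose in 4T07 lungs. In spleens it stood at 229, 292 and 378 CPM in Control spleens, 245, 292 and 263 CPM in 67NR spleens, 94.9, 124 and 140.0 CPM in 4T07 spleens and 94.2, 114 and 84.5 CPM in 4T1 spleens, falling in 4T07 (-1.14 ± 0.20, adjusted p = 0.000553) and 4T1 (-1.36 ± 0.20, adjusted p = 0.000107). In lungs it stood at 58.4, 50.9 and 55.0 CPM in Control lungs, 50.2, 43.9 and 45.9 CPM in 67NR lungs, 163, 142 and 114 CPM in 4T07 lungs and 99.3, 119 and 81.4 CPM in 4T1 lungs, rising in 4T07 (1.41 ± 0.16, adjusted p = 3.4e-07), with 4T1 at 0.88 ± 0.16, adjusted p = 0.00101. Il34, the second ligand of the CSF-1 receptor, stood at 77.7, 64.1 and 55.0 CPM in 67NR tumors, 28.7, 23.8 and 31.0 CPM in 4T07 tumors and 36.0, 33.8 and 31.1 CPM in 4T1 tumors, highest in 67NR, which overlapped neither 4T07 (-1.49 ± 0.18, adjusted p = 1.44e-05) nor 4T1 (-1.16 ± 0.18, adjusted p = 0.000149). It also fell in 4T1 spleens, from 20.4, 25.4 and 41.8 to 10.1, 15.7 and 6.40 CPM (-1.20 ± 0.29, adjusted p = 0.00517). Macrophage and monocyte markers, cells that depend on that receptor, summed to 2179.9 to 2487, 2307 to 2972 and 1822 to 2186 CPM in 67NR, 4T07 and 4T1 tumors, with 2 and 1 of 8 markers lower in 4T07 and 4T1 than in 67NR and none higher. Il16 lost its call between 4T07 and Control spleens without Control library 9 or 4T07 library 28 (log2 fold change -0.96 to -0.97). The Il34 call between 4T1 and Control spleens was lost without Control library 9 or 4T1 library 42 (log2 fold change -0.90 to -0.96).

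The genes through which interleukins are processed and signal but that do not carry the name were read beside the members: 54 genes of the inflammasome, MyD88 and NF-kB signaling, JAK and STAT proteins, SOCS feedback inhibitors, the IL-6 family and cytokines such as Tslp. In 4T07 tumors 18 of the 54 were higher and 1 lower than in 67NR, where 17.1% and 11.8% of all genes were, and in 4T1 tumors 15 higher and 2 lower, against 11.6% and 9.07%. Tslp, an epithelial cytokine that signals through Il7r, was higher in 4T07 than in 67NR tumors (118 ± 89.8 against 4.88 ± 0.713 CPM, log2 fold change 4.35 ± 0.50, adjusted p = 8.06e-06). Crlf2, the other chain of the TSLP receptor, was lower in 4T07 tumors (103 ± 12.6 against 213 ± 28.8 CPM, log2 fold change -1.29 ± 0.17, adjusted p = 2.91e-05), while Il7r was higher. In 4T1 tumors Osm, a gp130 cytokine, and its receptor chain Osmr were both higher than in 67NR (Osm: 10.7 ± 2.30 against 1.20 ± 0.441 CPM, log2 fold change 2.94 ± 0.37, adjusted p = 2.38e-05; Osmr: 48.1 ± 7.14 against 8.73 ± 2.89 CPM, log2 fold change 2.27 ± 0.23, adjusted p = 3.01e-06), and Socs1, a feedback inhibitor of cytokine receptors, was lower (21.1 ± 5.71 against 54.0 ± 14.9 CPM, log2 fold change -1.56 ± 0.26, adjusted p = 0.000251).

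In lungs 10 of the 54 were higher and 2 lower with 4T07 tumors, against 15.3% and 13.7% of all genes, and 10 higher and none lower with 4T1 tumors, against 3.56% and 1.05%, in both cases with Mefv, the pyrin inflammasome sensor of neutrophils and monocytes, among the largest rises (18.4 ± 7.20 against 1.14 ± 0.296 CPM, log2 fold change 4.00 ± 0.39, adjusted p = 5.7e-07 in 4T1). Myd88, the adaptor of IL-1 receptors, was higher in 4T1 lungs (90.9 ± 21.0 against 30.5 ± 1.72 CPM, log2 fold change 1.59 ± 0.17, adjusted p = 2.35e-06) and spleens (83.4 ± 12.7 against 31.7 ± 1.62 CPM, log2 fold change 1.65 ± 0.19, adjusted p = 1.13e-05), and Socs3, the inhibitor of gp130 signaling, was higher in 4T1 lungs (39.0 ± 7.63 against 9.80 ± 1.58 CPM, log2 fold change 2.00 ± 0.20, adjusted p = 5.91e-07) and spleens (34.8 ± 3.84 against 5.98 ± 1.78 CPM, log2 fold change 2.81 ± 0.27, adjusted p = 2.06e-06). In spleens, of 52 tested, 3 were higher and 2 lower with 4T07 (all genes, 8.26% and 10.3%) and 7 higher and 2 lower with 4T1 tumors (9.84% and 10.0%); Csf2rb, the beta chain shared by IL-3, IL-5 and GM-CSF receptors, was higher with 4T07 (58.5 ± 9.66 against 23.2 ± 1.36 CPM, log2 fold change 1.51 ± 0.20, adjusted p = 4.22e-05) and with 4T1 tumors (75.9 ± 8.68 against 23.2 ± 1.36 CPM, log2 fold change 1.97 ± 0.20, adjusted p = 2.81e-06). In scaffolds, of 53 tested, none passed with 4T1 or 67NR tumors, comparisons in which hardly any of all genes passed. That count therefore cannot be read as a result about the pathway genes, and their count with 4T07 tumors is not given here.

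Whether a tissue answered a tumor differently from another was tested directly, as the difference between the log2 fold changes of the tissues in a model of all 36 scaffold, lung and spleen libraries, at an adjusted p under 0.10; 67 members were tested. With 4T1 tumors 6 members differed between scaffold and lung, where 1.05% of all genes did, and all 6 values were negative, scaffold minus lung. They were Il17ra (-1.50 ± 0.41, adjusted p = 0.0785), Il18rap (-1.66 ± 0.42, adjusted p = 0.0407), Il1rn (-1.07 ± 0.23, adjusted p = 0.00929), Il1b (-3.35 ± 0.62, adjusted p = 0.00117), Il1f9 (-5.83 ± 0.79, adjusted p = 1.05e-05) and Il1r2 (-4.18 ± 0.50, adjusted p = 1.34e-06). With only the compared groups in the fit 3 of them passed, and Il17ra, Il18rap and Il1rn did not (adjusted p = 0.172, 0.103 and 0.151). Il17ra and Il18rap also lost their calls without Control scaffold library 2, among other single libraries (adjusted p at most 0.508 and 0.326). Without that library Il1b was -1.57 ± 0.37, adjusted p = 0.0278 and Il1f9 -3.88 ± 0.54, adjusted p = 2.84e-05, and with 4T07 tumors Il1f9 was -3.10 ± 0.55, adjusted p = 0.000117 in place of -5.06 ± 0.81, adjusted p = 2.08e-05. Il1r2 was also high in that library, at 32.0 CPM against 14.7 and 9.29 CPM in Control scaffold libraries 1 and 3, and its value without it is not given here. Between lung and spleen 12 differed with 4T1 tumors (all genes, 16.8%) and 19 with 4T07 tumors (all genes, 22.0%), with Il16 at 2.22 ± 0.28, adjusted p = 3.46e-06 and 2.43 ± 0.28, adjusted p = 7.81e-08 (lung minus spleen). Between scaffold and spleen 17 differed with 4T1 (all genes, 15.2%) and 19 with 4T07 tumors (all genes, 16.7%), and between scaffold and lung 20 differed with 4T07 tumors (all genes, 20.6%), a count that was 13 without 4T07 lung library 26. The model took the tissues of a mouse as independent, since the labels do not link them.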

How the data were processed

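RNA of 45 mouse libraries was sequenced with QuantSeq 3′ FWD, which reads a tag near the 3′ end of each transcript with a unique molecular identifier. The deposited values were raw read counts per gene symbol, one table for all libraries; per the submitters' processing notes the authors used Trim Galore 0.5.0, STAR 2.6.0 and featureCounts. Genome build, annotation, strand setting and whether molecular identifiers were collapsed are not given in the sources used here, so genes that overlap or share reads cannot be separated, and intervals cover counting error only.

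Groups came from the library labels, and no pair of libraries held identical counts. Members were the symbols matching the name rule; a symbol on several lines was summed. The members, the family, marker and pathway lists and the tests were chosen with earlier results of these data known. Each tissue was fitted alone with all its groups in edgeR 4.0.16 (R 4.3.3): a gene needed over 10 counts in that tissue, TMM normalization, quasi-likelihood F test, Benjamini-Hochberg adjustment over all genes tested. The cut-offs are those in the study's results, read here as adjusted p in every tissue, although for lung and spleen the study names only a p-value. Control tissues and differences between tissues were tested in one fit of the 36 scaffold, lung and spleen libraries. SE is the log2 fold change divided by the square root of F. The scripts were checked on simulated data. CPM is the count divided by the library total and multiplied by 1000000, without TMM.

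Members past the threshold were named, with a fixed roster of well-known interleukin genes in every group; members under 1 CPM in all groups of a tissue were only counted unless they passed. Alternatives were DESeq2 1.42.0, its size factors in edgeR, no filter, at least 10 counts in at least 3 libraries, the compared groups alone, and leaving out each library. Promoter sequences came from the RefSeq table (GRCm38.p6); the reference genome given, of an older build, was not used. Some genes of the pathway list are not reported here by name.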

Additional observations from a re-analysis of the deposited data

Results flagged for a closer look

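Members whose response to a tumor line differed between tissues by the test of that difference are given here, 3 for each pair of tissues and line, those with the smallest adjusted p (edgeR's quasi-likelihood test, log2 fold change against Control in one tissue minus that in the other). With 4T07 tumors, Il21r (3.28, adjusted p = 3.68e-08), Il16 (2.43, adjusted p = 7.81e-08) and Il10ra (2.32, adjusted p = 1e-07) differed between lung and spleen; all 3 rose in 4T07 lungs, and Il16 and Il10ra fell in 4T07 spleens. Il1r2 differed by -4.47 (adjusted p = 1.86e-07) between scaffold and lung and by -2.98 (adjusted p = 6.25e-05) between scaffold and spleen, Il21r by -2.94 (adjusted p = 1.9e-06) and Il1f9 by -5.06 (adjusted p = 2.08e-05) between scaffold and lung. Il18 (1.88, adjusted p = 6.36e-05) and Il16 (1.73, adjusted p = 9.34e-05) differed between scaffold and spleen, and both fell in 4T07 spleens.

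With 4T1 tumors, Il16 (2.22, adjusted p = 3.46e-06), Il7r (2.13, adjusted p = 0.000200) and Il10ra (1.57, adjusted p = 0.000213) differed between lung and spleen. Il1r2 (-4.18, adjusted p = 1.34e-06), Il1f9 (-5.83, adjusted p = 1.05e-05) and Il1b (-3.35, adjusted p = 0.00117) differed between scaffold and lung, and all 3 rose in 4T1 lungs and did not pass in 4T1 scaffolds. Without Control scaffold library 2, which was high in Il1b and Il1f9, the values were -1.57 for Il1b and -3.88 for Il1f9, and the 4T07 value of Il1f9 was -3.10 (adjusted p = 0.0278, 2.84e-05 and 0.000117). Il1r2 was also high in that library, at 32.0 CPM against 14.7 and 9.29 CPM in libraries 1 and 3. Its differences between tissues without that library are not given here, for either line. Il7r (2.26, adjusted p = 8.28e-05), Il16 (1.75, adjusted p = 0.000111) and Il1rn (-1.36, adjusted p = 0.000382) differed between scaffold and spleen. Groups had 3 libraries, too few for a test of single outlying libraries.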

How the results depend on the processing

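Counts of members past the threshold moved by over 1.5 times in few settings. Without a filter on low counts, 1 member passed between 4T1 and Control scaffolds in place of 0 (Il12b, -1.64, adjusted p = 0.00422) and 5 in place of 3 between 4T1 and 4T07 scaffolds. With only the compared groups in the fit, 0 passed between 4T1 and 4T07 scaffolds and 3 in place of 6 members differed in their 4T1 response between scaffold and lung, fits with fewer libraries. With DESeq2, 0 in place of 1 passed between 67NR and Control lungs. Apart from fewer libraries, the cause was not tested.

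Leaving out 1 library, the count was 10 to 15 between 4T1 and 4T07 tumors, 0 to 1 between 67NR and Control scaffolds, 0 to 3 between 4T1 and 4T07 scaffolds, 0 to 2 between 67NR and Control lungs, 0 to 2 between 67NR and Control spleens, 1 to 5 between 4T1 and 4T07 spleens, and 13 to 27 for the 4T07 difference between scaffold and lung. Without Control library 2, the Il1b difference between 4T07 and Control scaffolds turned from negative to 0.072 (adjusted p = 0.938); with 1 library left out it ran from -2.17 to 0.072.

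Of the named differences, 335 of 350 kept their call with DESeq2, 352 of 354 with its size factors, 317 of 320 with the stricter filter, 344 of 354 without a filter, 334 of 351 with the compared groups alone, and 2417 of 2675 fits with 1 library left out. No paired analysis was possible because each library has its own number and the labels do not link tissues of a mouse. With 3 libraries per group and 3491888 to 8175380 counts each, members under about 1 CPM rest on a few counts.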
